A study of Homo sapiens with 7 samples.

Results

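The genes described here are 10 heat shock genes, measured in libraries labelled as RPMI 8226, a human multiple myeloma cell line: HSP90AA1, HSP90AB1, HSPA1A, HSPA1B, HSPA8, HSPB1, HSPH1, HSPD1, DNAJB1 and HSF1. They were chosen by name as the cytosolic heat shock chaperones, out of 60666 gene identifiers in the count table, and all 10 were found and passed the filter on low counts. Not every member answers to that name: HSPD1 encodes the mitochondrial chaperonin HSP60, and HSF1 encodes a transcription factor and not a chaperone. Bulk RNA sequencing of 7 libraries gave their messenger RNA levels. In 2 libraries HDAC6, a cytoplasmic deacetylase, had been knocked out (KO). In 3 libraries HDAC6 carried a change of 2 residues in its ZnF-UBP domain that abolishes ubiquitin binding (RY), and 2 libraries were from unedited cells (WT). CRISPR-Cas9 was used for both edited lines, and the sources do not say whether each is a single clone. All cells were grown in the same serum-containing medium, and the labels name no heat or drug treatment in any group.

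Heat shock proteins bind unfolded proteins and help them fold, reach their partners or be handed to the proteasome. HSP70 proteins take up a client with the help of J-domain proteins such as DNAJB1, release it through exchange factors such as HSPH1, and pass a subset of clients on to HSP90. HSF1 drives the stress-induced members of the family and is itself held inactive by HSP70 and HSP90. HDAC6 deacetylates HSP90 and, through its zinc finger, binds ubiquitin, and it is known to take part in releasing HSF1 when ubiquitinated proteins build up. Myeloma cells secrete large amounts of immunoglobulin and depend on this machinery.

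HSF1 binds inverted repeats of a 5-base unit. The 250 bases before the transcription starts of the members were therefore searched for adjoining inverted units, GAANNTTC or TTCNNGAA, and for runs of 3 units, GAANNTTCNNGAA or TTCNNGAANNTTC. Each longer form contains the shorter ones, and each search covers both strands, since the shorter forms are their own reverse complements and the longer forms are each other's. Promoter windows from RefSeq (GRCh38.p14) matched 9 members through 15 transcription starts, and HSF1 was not searched. An adjoining pair was found in 8 of the 15 windows, 1 window each of 8 members, and in 11.6% of 35116 promoter windows over all genes. A run of 3 units was found in 4 of the 15 windows, before a start of HSP90AA1, HSP90AB1, HSPA8 and HSPD1, and in 0.441% of all windows. HSPH1 had no match to these letters in its window. The 5 upstream stretches below are examples of a run of 3 units (HSP90AA1 and HSPA8) and of single pairs (HSPA1A, HSPA1B and DNAJB1). They are written 5′ to 3′ on the strand of the gene, end at the base before the start, and have the matches in capitals.
HSP90AA1: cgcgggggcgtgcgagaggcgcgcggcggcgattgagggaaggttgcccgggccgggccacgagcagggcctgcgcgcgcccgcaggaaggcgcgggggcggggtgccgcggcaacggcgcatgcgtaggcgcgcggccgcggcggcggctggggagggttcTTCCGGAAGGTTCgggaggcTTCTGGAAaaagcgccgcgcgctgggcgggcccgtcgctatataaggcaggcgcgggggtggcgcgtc
HSPA8: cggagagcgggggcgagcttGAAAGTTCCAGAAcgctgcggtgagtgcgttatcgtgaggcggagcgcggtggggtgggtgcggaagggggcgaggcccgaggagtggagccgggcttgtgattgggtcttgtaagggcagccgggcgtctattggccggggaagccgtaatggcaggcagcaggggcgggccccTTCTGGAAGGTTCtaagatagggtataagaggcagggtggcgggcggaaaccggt
HSPA1A: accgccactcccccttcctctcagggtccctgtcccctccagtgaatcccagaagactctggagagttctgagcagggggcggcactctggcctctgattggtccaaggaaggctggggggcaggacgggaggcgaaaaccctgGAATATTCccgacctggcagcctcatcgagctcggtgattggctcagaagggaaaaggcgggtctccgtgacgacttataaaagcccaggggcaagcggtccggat
HSPA1B: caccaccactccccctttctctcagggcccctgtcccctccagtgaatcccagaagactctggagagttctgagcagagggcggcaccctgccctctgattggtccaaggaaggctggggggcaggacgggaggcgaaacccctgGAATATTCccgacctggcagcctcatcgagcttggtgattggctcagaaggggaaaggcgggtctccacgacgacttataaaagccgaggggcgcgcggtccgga
DNAJB1: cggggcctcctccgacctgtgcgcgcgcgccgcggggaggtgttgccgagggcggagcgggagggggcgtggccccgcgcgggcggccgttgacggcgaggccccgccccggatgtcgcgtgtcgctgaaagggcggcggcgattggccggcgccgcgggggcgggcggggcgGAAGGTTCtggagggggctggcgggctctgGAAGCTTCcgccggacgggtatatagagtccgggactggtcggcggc
The HSP90AA1 stretch is chr14:102087045-102087294 on the minus strand, and its matches begin between 88 and 68 bases before the start. The HSPA8 stretch is chr11:123062137-123062386 on the minus strand, with 2 runs of 3 units, the first beginning 230 bases and the last match 50 bases before the start. HSPA1A (chr6:31815293-31815542) and HSPA1B (chr6:31827488-31827737), both on the plus strand, have a single pair each, 106 and 105 bases before the start. These neighbouring stretches share 235 of 249 aligned bases, or 94.4%. The DNAJB1 stretch is chr19:14518398-14518647 on the minus strand, with pairs beginning 77 and 47 bases before the start. A match is a description of the letters and does not show that HSF1 was bound.

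Depth was similar across libraries, at 34768942 to 36670541 counted reads in KO, 31368968 to 38112341 in RY and 38662718 to 42813888 in WT. HDAC6 stood at 15.9 ± 4.38 counts scaled to library size (CPM) in KO, 99.1 ± 10.2 CPM in RY and 67.2 ± 14.2 CPM in WT (SD, n = 2, 3 and 2). The libraries labelled RY stood apart from their cell type. The summed level of 13 plasma cell markers was 358 to 394 CPM in RY, with TNFRSF17 and IGHA1 at 0, against 15074 to 17099 CPM in KO and 16038 to 19125 CPM in WT, where none was at 0. Marker sums were scaled to counted reads alone, and single genes also by the TMM factors named under processing. XBP1 held most of the RY sum, at 322, 308 and 353 CPM. SDC1, IGKC, IGLC2, IGLC3, JCHAIN and IRF4 stood at 1.66 CPM or less in each RY library. The sum of 11 myeloid markers was 54.2 to 57.2 CPM in KO (LYZ and CEBPE at 0), 1307 to 1520.2 CPM in RY and 114 to 146 CPM in WT (ELANE and PRTN3 at 0). CD33 held most of the KO sum, at 57.9 and 52 CPM, and MPO most of the RY sum, at 931 to 1057 CPM. CD14 went the other way and was lower in RY than in WT (log2 -1.83). The sum of 10 early lymphoid and T cell markers was 3.25 to 4.58 CPM in KO, 50.5 to 51.9 CPM in RY and 16.6 to 23.1 CPM in WT. In RY and WT, ubiquitin binding by HDAC6 and this difference in cell type cannot be told apart. Whether the RY libraries come from the labelled line was not tested, and each comparison of RY is between the libraries labelled RY and those of the other group. Over 210 genes found at 20 CPM or more in RY and nearly absent from KO, the level in WT replicate 1 was a median of 4.04% of that in RY, and in WT replicate 2 it was 7.09%. These genes were chosen as nearly absent from KO, so RY RNA within WT and WT expression that KO lacks cannot be told apart here. The labels do not say that replicates were separate cultures, so the p-values rest on a spread between libraries that may be only technical. In bulk RNA, fewer cells of a kind and less RNA per cell cannot be told apart.

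Within WT and within KO, replicates differed in most of these genes by more than the KO and WT means did. WT replicate 1 lay above WT replicate 2 in 10 of 10 members, and by at least 1.5-fold in 8 of them. Across the 13802 genes that averaged 1 CPM or more, 5.24% were that much higher in WT replicate 1 and 14.5% in WT replicate 2. KO replicate 2 lay above KO replicate 1 in 9 of 10 members, and by at least 1.5-fold in 3 (HSP90AA1, HSPA8 and HSPH1), against 3.52% of all genes, and 6.27% were that much higher in KO replicate 1. In no member were the highest and lowest RY replicates 1.5-fold apart, against 11.2% of all genes.

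HSP90AA1 is the stress-inducible form of cytosolic HSP90. It had 922 and 1525 CPM in KO replicates 1 and 2, 2920.1, 2717 and 2855 CPM in RY, and 1754 and 816 CPM in WT replicates 1 and 2. Both KO libraries lay between the WT libraries, and all RY libraries lay above both other groups. The WT replicates were 2.15-fold apart, with a counting interval of 2.12 to 2.18. This ratio of WT replicate 1 over 2 was higher than in 99.3% of genes, where genes higher in replicate 2 count as lower. The KO replicates were 1.65-fold apart in the opposite order of replicate number (1.63 to 1.68). HSP90AB1, the constitutive form, had 1930.0 and 2777 CPM in KO, 2937, 2616 and 2668 CPM in RY, and 3042 and 1929 CPM in WT. Its WT replicates were 1.58-fold apart and its KO replicates 1.44-fold, so the same libraries were high and low as for HSP90AA1.

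HSPA8, the constitutive HSP70 of the cytosol, had 1375 and 2179.7 CPM in KO, 2228, 1954 and 2181 CPM in RY, and 2239.9 and 1101 CPM in WT. HSPA1B, one of the near-identical genes of stress-inducible HSP70, had 47.4 and 67.3 CPM in KO, 15.7, 14.7 and 11.6 CPM in RY, and 89.3 and 32.3 CPM in WT. Its neighbour HSPA1A had 2.53 and 2.52 CPM in KO, 0.775, 0.915 and 0.847 CPM in RY, and 8.49 and 2.86 CPM in WT. The stress-inducible pair had the widest WT spread of the members, at 2.97-fold for HSPA1A (counting interval 2.39 to 3.72) and 2.77-fold for HSPA1B (2.60 to 2.96). Each of these ratios of WT replicate 1 over 2 exceeded that of 99.8% of genes, ranked in that direction only. HSPA8 differed 2.03-fold between the WT replicates and 1.59-fold between the KO replicates. HSPA1A was the exception in KO, where its replicates stood in a ratio of 0.996 (counting interval 0.731 to 1.36).

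DNAJB1, a J-domain partner of HSP70 that is strongly heat-induced, had 121 and 171 CPM in KO, 148, 145 and 151 CPM in RY, and 198 and 86.4 CPM in WT. HSPH1, an HSP110 protein that exchanges the nucleotide of HSP70, had 179.5 and 271 CPM in KO, 277, 263 and 272 CPM in RY, and 317 and 154 CPM in WT. In both genes the RY libraries lay between the WT libraries, which were 2.29-fold apart for DNAJB1 and 2.06-fold for HSPH1. HSPB1, the small heat shock protein HSP27, had 183 and 260.0 CPM in KO, 220.1, 244 and 227 CPM in RY, and 259 and 189.6 CPM in WT. HSPD1 had 1037 and 1436 CPM in KO, 843, 745 and 816 CPM in RY, and 1580.2 and 1021 CPM in WT. HSPB1 differed 1.37-fold and HSPD1 1.55-fold between the WT replicates, and both were lower in KO replicate 1 than in KO replicate 2. HSF1 had 172 and 191 CPM in KO, 88.5, 93.7 and 94.1 CPM in RY, and 189 and 155 CPM in WT. The factor itself thus differed least between WT replicates (1.22-fold) and, HSPA1A aside, between KO replicates (1.11-fold).

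**Figure D1:**
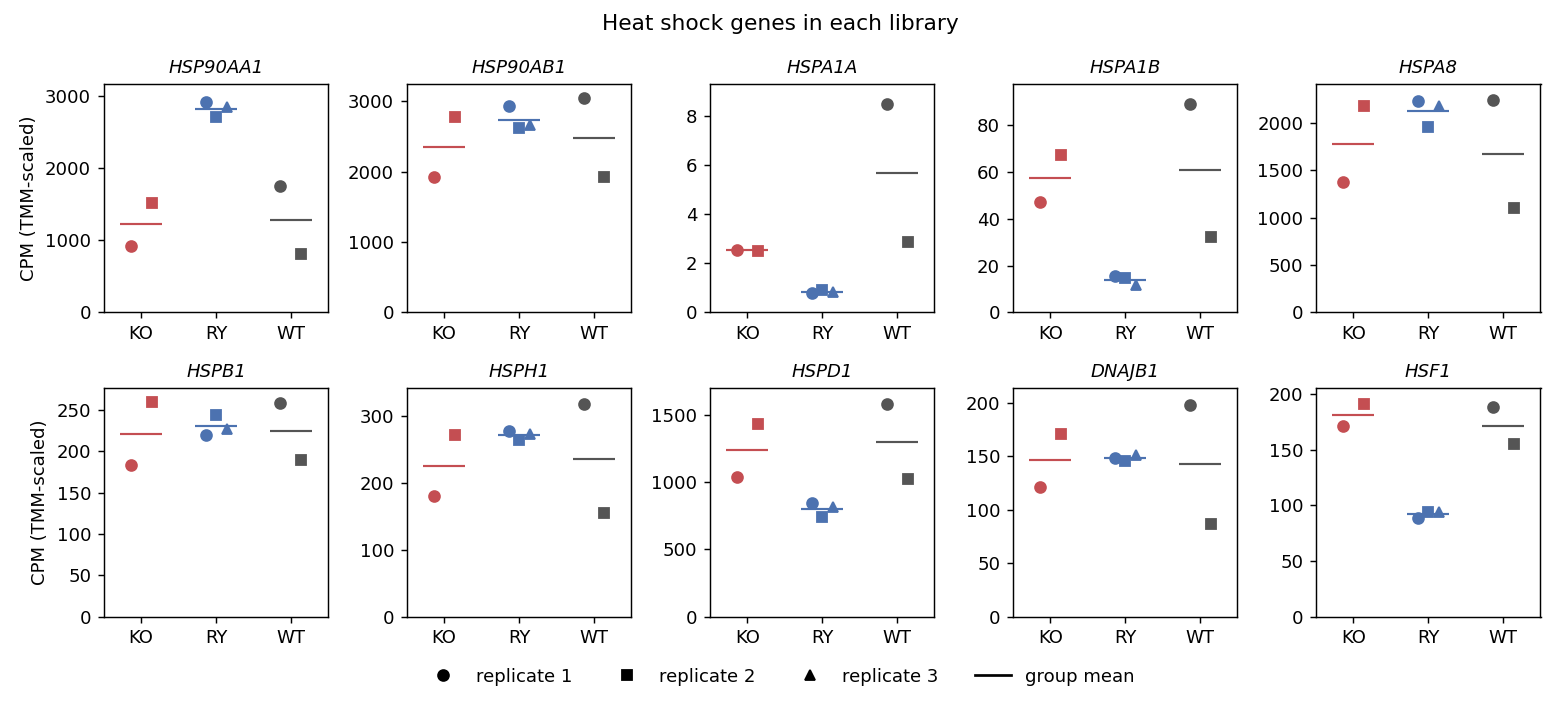
Level of each of the 10 genes in every library, in CPM on a linear axis from 0 with its own scale per gene, with KO, RY and WT from left to right; each point is a library, its shape the replicate number and the line a group mean. WT replicate 1 lies above WT replicate 2 in every gene, KO replicate 2 lies above KO replicate 1 in all genes but HSPA1A, and the RY points lie close together.

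In coefficient of variation, the members had a median of 24.6% in KO, 5.88% in RY and 48.7% in WT, where all 13802 genes had medians of 8.56%, 6.17% and 13.2%. In WT, 6 members lay above the 90th percentile of all genes. The members together took 0.579% and 0.851% of counted reads in KO replicates 1 and 2, 0.958% to 1.03% in RY, and 0.902% and 0.516% in WT replicates 1 and 2. The median member stood at a log2 ratio of 1.04 for WT replicate 1 over 2 and of 0.51 for KO replicate 2 over 1, while the medians over all genes were -0.018 and 0.02. The 3 genes past 1.5-fold in KO were also past it in WT, which held for 0.543% of all genes, and 9 members were higher in both WT replicate 1 and KO replicate 2, against 37.3%. With library size as the only scaling, 2 members and not 3 were past 1.5-fold in both. Numbering carries no pairing in the labels, and the deviations of KO replicate 2 and WT replicate 1 from their group means correlated at 0.60 across genes, which are not independent replicates. The level of the 210 genes chosen as high in RY and nearly absent from KO, termed RY-like RNA, was the lower in WT replicate 1. Taken as a share of RY RNA in WT, it would make up 0.829% to 12.3% of the members' WT levels. Whether WT holds this share was not tested. With it subtracted, the log2 ratio of WT replicate 1 over 2 for HSP90AA1 was 1.37, against 1.10 as measured.

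**Figure D2:**
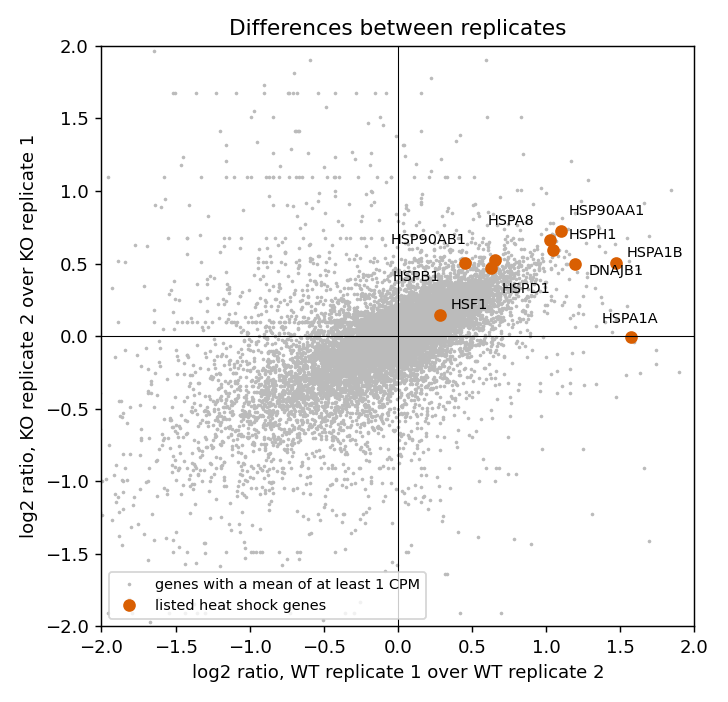
Log2 ratio of KO replicate 2 over KO replicate 1 (vertical axis) against that of WT replicate 1 over WT replicate 2 (horizontal axis), for genes that averaged 1 CPM or more (grey) and the 10 listed genes (orange). Of the 13802 genes at that level, those without a defined ratio in either group are not drawn. The axes stop at 2 in either direction and leave 406 genes outside; 9 of the 10 listed genes lie right of and above 0, and HSPA1A lies at 0 on the vertical axis.

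The same order of libraries was seen in some, but not all, other groups of folding genes. Of all 13802 genes, 6643 were higher in WT replicate 1 and 7200 in KO replicate 2. Of 20 heat-inducible genes that are not among the 10 members, 16 were higher in WT replicate 1 and 15 in KO replicate 2, with median log2 ratios of 0.56 and 0.41, and 9 were at least 1.5-fold higher in WT replicate 1. BAG3, which links HSP70 to autophagy, had 21.9 and 30.3 CPM in KO, 12.4 to 12.9 CPM in RY, and 44.2 and 21.6 CPM in WT. All 14 subunits of the cytosolic chaperonin TRiC and of prefoldin were higher in WT replicate 1, and 13 in KO replicate 2, with medians of 0.45 and 0.32. Of 10 other HSP70 exchange and BAG factors, 10 were higher in WT replicate 1 and 10 in KO replicate 2 (medians 0.36 and 0.17). Of 19 HSP90 co-chaperones, 17 were higher in WT replicate 1 and 17 in KO replicate 2. STIP1, which joins HSP70 to HSP90, had 362 and 505 CPM in KO, 416 to 467 CPM in RY, and 602 and 339 CPM in WT. Other J-domain proteins stood near 0, with 9 of 18 higher in WT replicate 1 and a median of 0.034. Of 10 other HSP70 and HSP110 genes, 8 were higher in WT replicate 1 but 5 in KO replicate 2, with medians of 0.40 and 0.048. Of 12 other mitochondrial chaperones, 7 were higher in WT replicate 1 and 8 in KO replicate 2 (medians 0.24 and 0.075), and of 4 heat shock factors and regulators, 2 and 2. These lists were chosen with results of the same libraries known, so their counts are a description.

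Levels between genes were compared per length, as TPM over the exonic length of each gene in GENCODE release 29. HSP90AB1 led in every group, at 2264 ± 606 TPM in KO, 3497 ± 316 TPM in RY and 2325 ± 805 TPM in WT (SD, n = 2, 3 and 2). In KO and WT, HSPA8 came next (1051 ± 350.3 and 963 ± 491 TPM), followed by HSPD1 and HSP90AA1, and the libraries of these neighbours overlapped. In RY, HSP90AA1 came next, at 2049 ± 112 TPM, above HSPA8 at 1662 ± 129 TPM, and no neighbouring members overlapped. Over the longest transcript of each gene, HSPA8 stood at 2466 ± 169.7 TPM in RY and HSP90AA1 at 2310.0 ± 102 TPM, with overlapping libraries, so their order depends on the length used. The TPM ratio of HSP90AA1 to HSP90AB1 was 0.271 and 0.312 in KO, 0.565, 0.59 and 0.608 in RY, and 0.327 and 0.24 in WT, so the RY libraries did not overlap the others. At the low end, HSPA1A was last in every group and HSPA1B next to last. Their transcripts share most 100-base stretches, so reads may be missing from either, and these levels were not corrected for it. In WT, HSPH1 overlapped HSPA1B, at 78.4 ± 40.6 and 67.6 ± 46.5 TPM. Over the longest transcript, HSP90AB1 still had the highest group means and HSPA1A the lowest, and the WT level of HSPA8 was 1474 TPM, that of HSPD1 1149 TPM and that of HSF1 108 TPM.

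**Figure D3:**
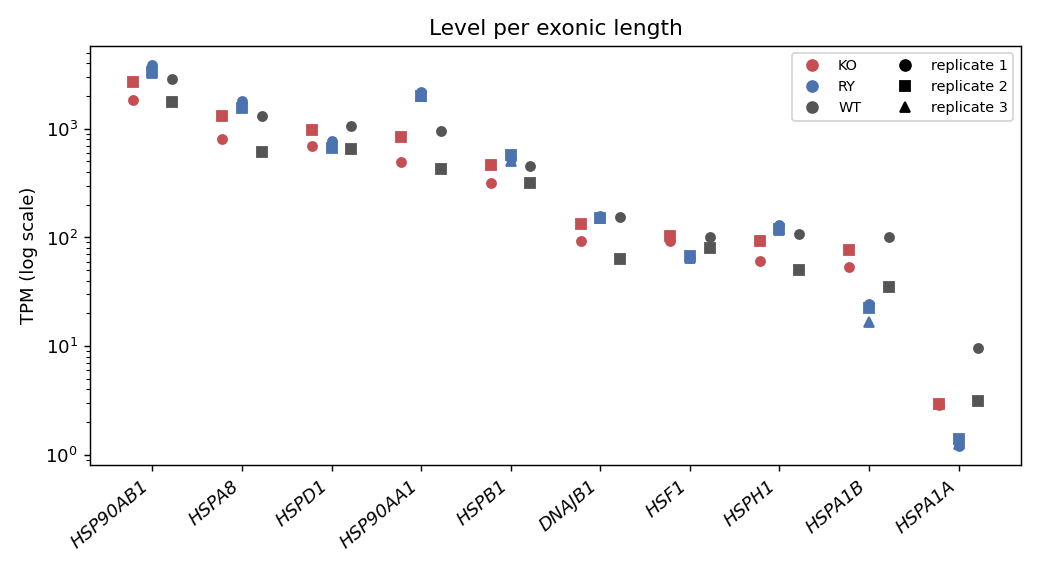
Level per length of the 10 genes in TPM on a log axis, with KO, RY and WT libraries from left to right; points are libraries and their shapes replicate numbers. HSP90AB1 is highest in all groups, HSP90AA1 stands second in RY at 2049 TPM over exonic length but not over the longest transcript, and HSPA1A is lowest in all groups.

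No member was called changed in KO against WT. Calls required both a 2-fold difference and a Benjamini-Hochberg adjusted p below 0.05 in edgeR's quasi-likelihood test over 18281 genes. Of the 10 members, 0 were called in KO against WT, where 10.9% of all genes were, and DESeq2 also called 0. A single member, HSPA1A, had an unadjusted p under 0.05. The median log2 fold change of the members was -0.067, and that of all genes -0.009.

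The intervals of KO against WT were wide for most chaperones. They came from the fit of all 7 libraries, so the RY libraries entered the shared spread. The members' median coefficient of variation was 5.88% in RY, 24.6% in KO and 48.7% in WT. In a fit of the WT and KO libraries alone, HSPA1A stood at -1.16 (adjusted p = 0.282, edgeR). That fit called 1462 genes, against 1991 in the fit of all libraries. HSP90AA1 averaged 1224 ± 426 CPM in KO and 1285 ± 663 CPM in WT, with the log2 fold change at -0.071 (SE 0.33, 95% interval -0.81 to 0.67, adjusted p = 0.929, edgeR). For HSPA8 it was 0.089 (-0.61 to 0.79), for HSPH1 -0.063 (-0.73 to 0.61), for DNAJB1 0.04 (-0.67 to 0.75) and for HSPA1B -0.083 (-0.96 to 0.79). A change of 1.5-fold in either direction lies inside each of these intervals. The tightest was that of HSF1, at 0.076 (-0.18 to 0.34), followed by HSPB1 at -0.019 (-0.44 to 0.40), and HSPD1 and HSP90AB1 stood at -0.073 (-0.55 to 0.41) and -0.079 (-0.60 to 0.44). HSPA1A, at 2.53 ± 0.0069 CPM in KO and 5.68 ± 3.99 CPM in WT, was the member whose libraries did not overlap, as held for 48.7% of all genes, at -1.15 on the log2 scale (SE 0.44, adjusted p = 0.124, edgeR). Without WT replicate 2 that gene's change was -1.75 (adjusted p = 9.24e-05) and without WT replicate 1 it was -0.18 (adjusted p = 0.671).

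HSPA1A stayed below 0 whichever library was left out, whereas the direction of the other members changed. Without WT replicate 1, HSP90AA1 stood at 0.58 (adjusted p = 0.0889) and HSPA1B at 0.83 (adjusted p = 0.0137), HSPA1B under the 2-fold minimum. Without WT replicate 2, HSP90AA1 stood at -0.52 and HSPA1B at -0.64. The sign turned without a WT replicate in 9 members and without a KO replicate in 8 of them. In the authors' deposited table of KO against WT, which lists 2336 genes, 0 of the members appear.

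In RY against WT, HSP90AA1 was called higher and the stress-inducible HSP70 pair lower. Thus 3 of 10 members were called, where 49.3% of all genes were, 23.9% as higher and 25.4% as lower. The median member stood at 0.048 and the median gene at -0.025. The libraries of RY and WT did not overlap in 5 members, against 81.7% of all genes.

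HSP90AA1 averaged 2830.5 ± 104 CPM in RY and 1285 ± 663 CPM in WT, 2.20-fold higher (log2 1.14, SE 0.31, adjusted p = 0.00845, edgeR). Without WT replicate 2 the log2 fold change was 0.68, under the 2-fold minimum, and without WT replicate 1 it was 1.79. HSPA1B averaged 14 ± 2.11 CPM in RY and 60.8 ± 40.4 CPM in WT, 4.33-fold lower (log2 -2.11, SE 0.36, adjusted p = 0.00058), and HSPA1A averaged 0.846 ± 0.0699 CPM in RY and 5.68 ± 3.99 CPM in WT, 6.62-fold lower (log2 -2.73, SE 0.46, adjusted p = 0.000525). Both remained called without either WT replicate, with log2 fold changes of -1.21 and -1.76 when WT replicate 1 was left out. The authors' deposited table of RY against WT lists the same 3 members, with log2 fold changes of 1.15 for HSP90AA1, -2.11 for HSPA1B and -2.73 for HSPA1A.

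A further pair of members had an adjusted p under 0.05 at less than 2-fold, as part of 5 members against 73.0% of all genes. HSF1 averaged 92.1 ± 3.13 CPM in RY and 172 ± 23.8 CPM in WT (log2 -0.90, SE 0.10, adjusted p = 4.48e-05), and without WT replicate 2 its log2 fold change of -1.04 passed the 2-fold minimum. HSPD1 averaged 802 ± 50.6 CPM in RY and 1301 ± 395 CPM in WT (log2 -0.70, SE 0.19, adjusted p = 0.00887), and without WT replicate 1 its adjusted p was 0.0582. HSP90AB1, HSPA8, HSPB1, HSPH1 and DNAJB1 did not pass, with log2 fold changes of 0.038 to 0.34. The interval of HSPB1 was -0.35 to 0.42, and that of HSPA8 was -0.30 to 0.99. Each of these 5 turned negative without WT replicate 2, DNAJB1 to -0.43 (adjusted p = 0.0222). Without WT replicate 1, 4 of them were higher in RY at an adjusted p under 0.05 and less than 2-fold: HSPA8 at 0.94 (0.00172), HSPH1 at 0.81 (0.0017), DNAJB1 at 0.77 (0.00111) and HSP90AB1 at 0.50 (0.0242).

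RY against KO shares the RY libraries with the comparison above, so its values are given beside it and not as an independent result. HSP90AA1 averaged 2830.5 ± 104 CPM in RY and 1224 ± 426 CPM in KO, 2.31-fold higher (log2 1.21, SE 0.31, adjusted p = 0.00616, edgeR), and without KO replicate 1 the call was lost (0.88, adjusted p = 0.057). HSPA1B averaged 14 ± 2.11 CPM in RY and 57.3 ± 14.1 CPM in KO, 4.09-fold lower (log2 -2.03, adjusted p = 0.000733). HSPA1A averaged 0.846 ± 0.0699 CPM in RY and 2.53 ± 0.0069 CPM in KO, 2.98-fold lower (log2 -1.57, adjusted p = 0.0215). That last call was lost without KO replicate 1 (adjusted p = 0.068), KO replicate 2 (0.0536), RY replicate 1 (0.0574) or RY replicate 2 (0.0505), while the log2 fold change stayed between -1.69 and -1.50. The 3 called members stand against 50.0% of all genes, 24.2% higher and 25.9% lower. With any fold allowed, 5 members and 73.9% of genes passed, and RY and KO libraries did not overlap in 5 members and 84.6% of genes. HSF1 was 1.97-fold lower in RY than in KO (log2 -0.98, adjusted p = 2.48e-05) and HSPD1 1.54-fold lower (-0.62, adjusted p = 0.0151). HSPD1 no longer passed without KO replicate 2 (-0.44, adjusted p = 0.116), without RY replicate 2 (adjusted p = 0.0547) or with a replicate block (adjusted p = 0.0592). HSF1 passed the 2-fold minimum without KO replicate 1 (-1.06) or RY replicate 2 (-1.04).

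**Figure D4:**
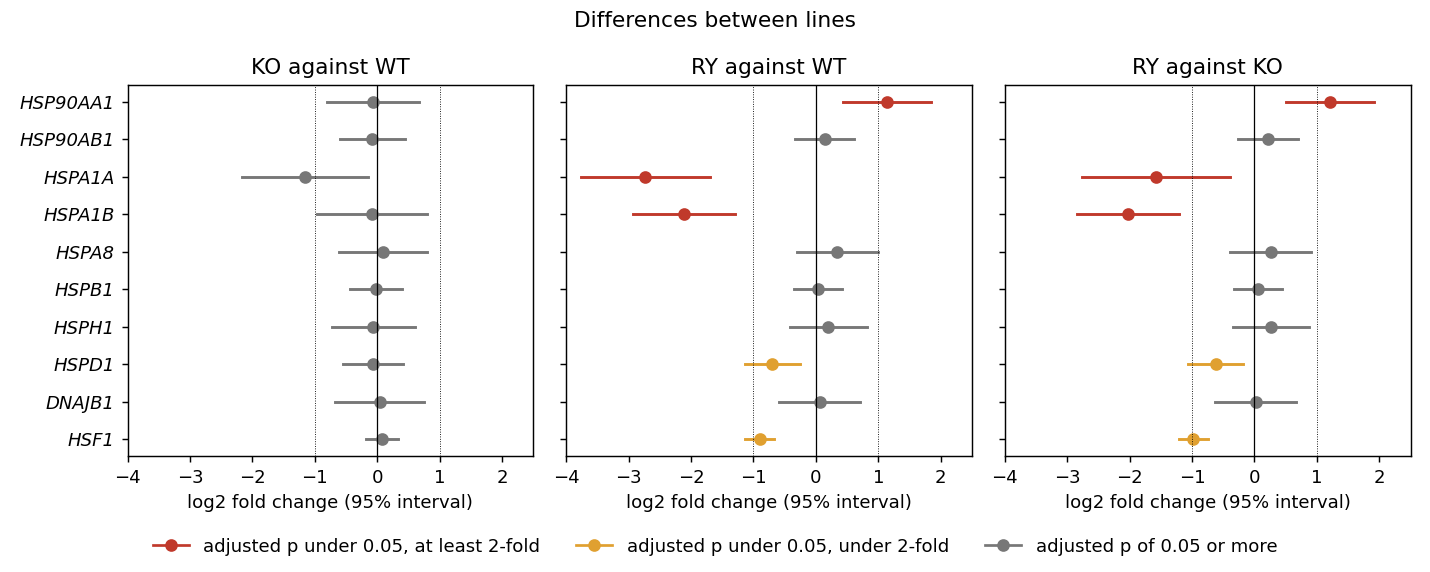
Log2 fold change of the 10 genes in KO against WT, RY against WT and RY against KO, with 95% intervals from edgeR's quasi-likelihood fit of all 7 libraries; dotted lines mark the 2-fold minimum and colours the call. All KO against WT intervals but that of HSPA1A cross 0; HSP90AA1 lies above 0, and HSPA1A, HSPA1B, HSF1 and HSPD1 lie below 0, in both comparisons of RY.

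Reads of the HSPA1A and HSPA1B genes are hard to assign, since 69.9% of the 100-base stretches of the HSPA1A transcript also occur in that of HSPA1B. The genes lie at chr6:31815464-31817946 and chr6:31827735-31830255 on GRCh38. Added into a single feature, the pair stood at 49.9 and 69.8 CPM in KO, 12.5 to 16.4 CPM in RY, and 97.8 and 35.1 CPM in WT. The sum was 4.47-fold lower in RY than in WT (log2 -2.16, SE 0.36, adjusted p = 0.000495, edgeR) and 4.03-fold lower in RY than in KO (adjusted p = 0.000762). For KO against WT it was at -0.15 (95% interval -1.02 to 0.72, adjusted p = 0.861), where HSPA1A alone stood at -1.15. HSPA1A took 5.07% and 3.61% of the pair's reads in KO replicates 1 and 2, with exact Clopper-Pearson 95% intervals of 4.10 to 6.20 and 2.89 to 4.45. It took 4.72% to 6.80% in RY, and 8.68% and 8.14% in WT, with intervals of 7.77 to 9.66 and 6.77 to 9.69. The KO and WT intervals did not overlap, and they cover counting error only.

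Some members lie across genes on the opposite strand, and the strand setting of the counting was not given in the sources used here. TECR, which overlaps DNAJB1, had 137% of its reads, with WT replicates in a ratio of 0.932 and KO replicates 2 over 1 at 0.945, so it did not share the replicate difference of DNAJB1. DGAT1 had 24.2% of the reads of HSF1. HSPE1, the HSP10 partner of HSPD1 on the opposite strand next to it, averaged 46.7 ± 1.89 CPM in RY and 107 ± 36.9 CPM in WT (log2 -1.20, adjusted p = 0.000645), and without WT replicate 1 it was at -0.80. No single pseudogene had more than 0.21% of the reads of its parent member.

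Among heat shock factors and their regulators, HSBP1, which binds HSF1 and limits its activity, had 29.7 and 32.8 CPM in KO, 224 to 239 CPM in RY, and 45.4 and 50.2 CPM in WT, and was 4.85-fold higher in RY than in WT (adjusted p = 8.34e-08, edgeR). HSF2, a partner of HSF1, averaged 32.6 ± 1.5 CPM in RY and 12.6 ± 1.17 CPM in WT (log2 1.37, adjusted p = 8.1e-06). Of the 6 genes of this list that were tested, HSBP1, HSF2, HSBP1L1 and HSF2BP were called higher in RY than in WT and HSF4 lower, where 49.3% of all genes were called; HSF1 is the remaining gene. In KO against WT, HSBP1 was 1.53-fold lower (log2 -0.61, adjusted p = 0.00316), and RY-like RNA would make up 27% of its WT level. HSBP1L1 was called lower in KO, at 0.0572 ± 0.0384 CPM in KO and 0.433 ± 0.0153 CPM in WT, but not without either KO replicate or with a replicate block (adjusted p = 0.0614).

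In the HSP70 and HSP110 family, 7 of 15 tested genes were called in RY against WT, a share near the 49.3% of all genes: HSPA4L and HSPA2 were higher, and HSPA1A, HSPA1B, HSPA12A, HSPA5 and HYOU1 lower. HSPA4L, an HSP110 protein, averaged 15.5 ± 6.3 CPM in KO, 50.9 ± 0.926 CPM in RY and 5.22 ± 1.37 CPM in WT. It was called higher in RY (9.79-fold, adjusted p = 3.72e-06) and in KO (2.98-fold, adjusted p = 0.00393) than in WT, while the RY-like share would be 54.3% of its WT level. The endoplasmic reticulum chaperones HSPA5 and HYOU1, which serve secretion, were 4.83-fold and 2.89-fold lower in RY than in WT, beside the lower plasma cell markers, and their link to those was not tested. HSPA1L, next to HSPA1A, was called lower in KO than in WT (0.371 ± 0.27 and 1.32 ± 0.214 CPM) but not with a replicate block (adjusted p = 0.0636) or without KO replicate 2 (adjusted p = 0.148).

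Of 19 J-domain proteins, DNAJA4 and DNAJC27 were called higher and DNAJC30 and DNAJB2 lower in RY than in WT. That stands against 49.3% of all genes called. In KO against WT, DNAJA4 alone was called, lower, against 10.9% of all genes. DNAJA4 had 1 read in KO and 82 reads in WT, a ratio of 74.1 at a counting interval of 12.9 to 2961, and averaged 28.1 ± 1.58 CPM in RY and 1.07 ± 0.102 CPM in WT. The RY-like share would be 146% of its WT level, which is more than the whole of it. DNAJA4 itself fits the rule for RY-like genes (20 CPM or more in RY, nearly absent from KO). That percentage is therefore not independent of the rule, and whether such a share underlies the difference between KO and WT was not tested. HSPB8, a small heat shock protein, had 0 reads in RY and 51 reads in WT, at least 25.5-fold lower against a floor of 3 reads over the RY group. HSPB6 went the other way, at 1.06 ± 0.338 CPM in RY and 0.254 ± 0.203 CPM in WT (log2 2.00, adjusted p = 0.00529, edgeR). Of 3 small heat shock proteins tested, 1 was thus called higher and 1 lower, where 49.3% of all genes were called.

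Among HSP90 co-chaperones, 4 of 19 were higher and 4 lower in RY than in WT at an adjusted p under 0.05 and any fold, and among TRiC and prefoldin subunits 6 of 14 were higher and 4 lower, where 73.0% of all genes passed. With the 2-fold minimum, 2 co-chaperones and 1 TRiC subunit were called, against 49.3% of all genes. In KO against WT, edgeR and DESeq2 called 0 of 19 co-chaperones and 0 of 14 TRiC and prefoldin subunits, where edgeR called 10.9% of all genes. The unadjusted edgeR p was under 0.05 for 1 gene of each list. In RY against WT edgeR called STUB1, the ubiquitin ligase CHIP that acts on chaperone clients, lower (40.2 ± 1.72 CPM in RY and 122 ± 18.6 CPM in WT, adjusted p = 1.28e-06) and CDC37L1 higher (26.1 ± 1.01 CPM in RY and 10.8 ± 0.0848 CPM in WT, adjusted p = 1.17e-05). CCT5, a TRiC subunit, averaged 798 ± 62.6 CPM in RY and 345 ± 78.3 CPM in WT (log2 1.21, adjusted p = 0.000104), and 0.99 without WT replicate 2. BAG3 averaged 12.6 ± 0.244 CPM in RY and 32.9 ± 16 CPM in WT (log2 -1.38, adjusted p = 0.00118), and -0.78 without WT replicate 1. CLPB, a mitochondrial disaggregase, averaged 101 ± 6.86 CPM in RY and 33.8 ± 5.5 CPM in WT (log2 1.58, adjusted p = 5.62e-06). Of 29 heat-inducible genes tested, members included, 2 were called higher (HSP90AA1 and HSPA4L) and 6 lower in RY than in WT: HSPA1A, HSPA1B, HSPE1, BAG3, the secreted chaperone CLU and the collagen chaperone SERPINH1. Of all genes, 23.9% were called higher and 25.4% lower in that comparison. In KO against WT, HSPA4L was called higher and HSPA1L lower, where 10.9% of all genes were called.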

How the data were processed

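RNA of 7 libraries (2 KO, 3 RY, 2 WT) was sequenced from stranded TruSeq libraries, per the labels' protocols. The authors deposited a raw read count per Ensembl gene. Tools listed in the submitters' processing notes, with no roles, are STAR 2.7.4, HTSeq 0.9.1, FastQC and edgeR 1.34.1, and the build is GRCh38; the sources used here give neither strand setting nor annotation. A normalized score deposited by the authors equalled the count over a factor per library and was not tested. The authors' deposited tables give a log2 fold change, a score F and a p-value for genes past their thresholds.

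Of 60666 identifiers, 60437 were matched to a symbol. Counts were tested with edgeR 4.0.16 in R 4.3.3 (quasi-likelihood F test, TMM, filterByExpr with a minimum count of 10, 1 fit of all 7 libraries by group, Benjamini-Hochberg over 18281 genes). The code was checked on simulated counts with the same spread in every gene and a small set of genes changed in KO only. That check does not show how the test behaves at the spread and number of changes seen here. CPM of single genes used TMM-scaled library sizes, of 31368968 to 42813888 counted reads. Sums of cell type markers were scaled to counted reads without TMM. Standard errors and intervals came from the F statistic. TPM used exonic lengths from GENCODE release 29. Intervals and the floor of 3 reads cover counting error only, at 95%.

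Alternatives covered scaling (library size, DESeq2 factors, upper quartile), DESeq2 1.42.0, filters, fits of 2 groups, replicate blocks, added pseudogene reads and each library left out. Subtracting RY-like RNA from WT and crossing the replicate numbers were chosen after seeing the data. Members and lists were chosen with earlier results of these data known. All members were named. For each related list, up to 3 called genes by adjusted p per comparison could be named. Where fewer than 2 were called, the most abundant could be, and not every such gene was named. HSF2BP, HSF4 in RY against WT, HSPA2 and DNAJB2 were named after their values were seen. HSPB11, on the list of small heat shock proteins, was not matched by name.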

Additional observations from a re-analysis of the deposited data

How the results depend on the processing

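With 2 libraries in KO and in WT, single libraries moved most values of KO against WT. With each library left out in turn, the log2 fold changes of KO against WT ran as follows: HSP90AA1 -0.52 to 0.58, HSP90AB1 -0.37 to 0.28, HSPA1A -1.75 to -0.18, HSPA1B -0.64 to 0.83, HSPA8 -0.34 to 0.69, HSPB1 -0.27 to 0.22, HSPH1 -0.50 to 0.55, HSPD1 -0.36 to 0.27, DNAJB1 -0.44 to 0.75 and HSF1 -0.063 to 0.22. The summed HSPA1A and HSPA1B pair ran from -0.71 to 0.77, and the number of members called from 0 to 1. In RY against WT the ranges were HSP90AB1 -0.16 to 0.50, HSPA8 -0.086 to 0.94, HSPB1 -0.18 to 0.28, HSPH1 -0.23 to 0.81 and DNAJB1 -0.43 to 0.77, and HSP90AA1 ran from 0.68 to 1.79. In RY against KO they were HSP90AB1 -0.029 to 0.44, HSPA8 -0.049 to 0.56, HSPB1 -0.18 to 0.26, HSPH1 -0.012 to 0.52 and DNAJB1 -0.22 to 0.22, HSP90AA1 ran from 0.88 to 1.55, and 2 to 3 members were called. Where an arm was left with 1 library, that library was assumed to vary like the other groups.

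Signs also turned in a few values near 0, and the cause was not tested. HSPB1 in KO against WT was 0.023 with library size only and 0.0058 with upper quartile factors. In fits of the 2 groups alone, RY against WT was -0.043 for HSPB1 and -0.018 for DNAJB1. Library size only moved the median log2 fold change of all genes to 0.16 in RY against WT and 0.11 in RY against KO, and the share of calls that were higher in RY than in WT to 54.5%, against 48.4% with TMM. HSP90AA1 in KO against WT moved to 0.035 with the RY-like share subtracted.

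Replicate numbers in the labels name no shared culture or day. With a replicate block, 1603 genes were called in KO against WT, 8708 in RY against WT and 8835 in RY against KO, against 1991, 9007 and 9149 without it, and the members called stayed at 0, 3 and 3. HSPA1B in KO against WT was 0.026 and DNAJB1 in RY against KO -0.016 with the block. In a fit of the WT and KO libraries alone, HSPA1B was 0.07 with the block, and 0.058 with the numbers crossed. Same-numbered KO and WT libraries deviated in opposite directions (-0.60 across genes). Crossing the numbers gave 2204 called genes against 1458 as numbered, and 1 member called.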
